A study of Drosophila melanogaster with 36 samples.

Results

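The cytosolic ribosomal protein genes of Drosophila melanogaster were followed across whole male flies that differed in the cells expressing a transgene, in the transgene itself and in age. They were taken as the genes whose current symbol starts with RpL or RpS and a number, together with sta and the stalk genes RpLP0, RpLP1 and RpLP2. Of 92 genes of that kind in the NCBI RefSeq annotation, 40 had a probe set that the array annotation assigned to that gene alone. In all 11981 genes had such a probe set. Whether the probes also match other transcripts was not examined. Where a gene had several, the probe set with the highest mean over all arrays stood for it. The other 52 genes, among them sta, RpL22 and RpS5a, had no probe set with a single gene name and were not analysed here.

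The cytosolic ribosome translates nuclear mRNA. Its small (40S) subunit reads the message and its large (60S) subunit joins the amino acids, and each is built in the nucleolus from ribosomal RNA and proteins whose genes are strongly transcribed in every growing or secreting cell. Most ribosomal proteins are needed in equal number, and in flies the loss of 1 gene copy of many of them gives the Minute phenotype of slow development and thin bristles. Drosophila also carries second gene copies of some ribosomal proteins, several of which are used in the germline, such as RpL22-like in the testis and RpS5b in the ovary.

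Expression was driven with the Gal4-UAS system, in which a Gal4 line active in chosen cells switches on a UAS transgene. The drivers were D42-Gal4 for motoneurons (MN), M1B-Gal4 for glia, or both together (MN+glia), and the transgene was wild-type Drosophila SOD1 (dSOD1, the control) or human SOD1 with the G85R mutation linked to amyotrophic lateral sclerosis (G85R). Flies were frozen at 5 days (5d) or 45 days (45d) of age, which gave 12 groups of 3 arrays, 36 in all, and each array held RNA of 40 whole adult males from an independent pool. Driver, insertion site and genetic background cannot be told apart between lines, the 45d flies are those that survived, and fewer cells of a type cannot be told apart from less RNA per cell in RNA of the whole animal. Testis and accessory gland markers were bright in these males, with mean levels at 5d of 10.04 to 10.34 and 11.60 to 12.04 on the log2 scale. Values are the deposited log2 levels, normalized by robust multiarray averaging (RMA). A difference of 1 is a 2-fold change, and levels of different genes are not compared as amounts of RNA, since each probe set has its own brightness.

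1 array stood apart from the rest. In replicate 2 of the MN+glia G85R flies at 5d, the actin control probe set near the 3′ end was 5.72 above the one near the 5′ end, against 2.39 to 3.25 on the other 35 arrays. A wide gap of this kind marks degraded RNA. The study's methods set aside 1 degraded array and named it as a glia G85R array at 5d, but in that group the gap was 2.53, 2.68 and 2.63. All 36 arrays were kept here. For comparisons that use the degraded array, counts of the 40 genes are also given without it, and single values where leaving it out changes a call or is stated. Each comparison was tested with limma over all 18769 fly probe sets with Benjamini-Hochberg adjustment, and a gene is called higher or lower where its adjusted p was at most 0.05.

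The 40 genes fell into 30 main genes, 11 of the 40S and 19 of the 60S subunit, and 10 genes that are a second copy of a ribosomal protein or resemble one (RpL10Aa, RpL22-like, RpL24-like, RpL37-2, RpL7-like, RpS5b, RpS10a, RpS19b, RpS28a and RpS28-like). The main genes lay close to the top of the scale of the array. Their mean levels over 36 arrays ran from 11.49 for RpL34a to 14.12 for RpL41, with a median of 13.57, while the median of all fly probe sets was 6.50 and the highest value on any array was 14.63. RpL41, the shortest ribosomal protein, RpS28b (13.87) and the stalk protein gene RpLP1 (13.87) had the brightest probe sets. The second copies ran from 6.90 for RpS10a, 7.68 for RpS28a and 7.79 for RpL37-2 up to 11.11 for RpL24-like. Arrays of a group agreed closely for the main genes, with a within-group SD of 0.02 to 0.05 and a median of 0.03, against a median of 0.11 over all probe sets. The SD of the second copies was 0.05 to 0.12.

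The 12 group means of a main gene spanned a median of 0.31, against 0.54 over all genes. RpL41, RpL15 and RpL39, all of the 60S subunit, had the narrowest ranges of group means, at 0.08, 0.11 and 0.15. The widest ranges were those of second copies, with 0.98 for RpS28-like, 0.92 for RpL24-like and 0.85 for RpL10Aa, and each of them separated the ages.

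Age was the condition that moved these genes most often. Between 5d and 45d, 24 to 29 of the 30 main genes rose in each of the 6 lines (3 drivers with 2 transgenes each) and none fell. This holds for the probe set that stood for each gene. A dimmer probe set of RpS7 was called lower in MN G85R (-0.29) and MN+glia G85R flies (-0.35). So was a dimmer probe set of RpS29 in MN dSOD1 (-0.24) and MN+glia dSOD1 flies (-0.40). The other probe sets left aside, of RpL3, RpS29 and RpS30, were called higher or not called. The median change of the main genes was 0.16 to 0.23 on the log2 scale, while the median of all genes was 0.01 to 0.05. Of the 10 second copies 3 to 7 fell in each line, and RpL24-like rose in all 6. Of the 40 genes together, 26 rose and 7 fell in MN dSOD1 flies, where 26.1% of all probe sets rose and 19.2% fell. In MN G85R flies 25 rose and 7 fell (21.8% and 17.4% of all probe sets), and in glia dSOD1 flies 31 rose and 6 fell (22.3% and 18.1%). In glia G85R flies 29 rose and 4 fell (19.3% and 14.9%), in MN+glia dSOD1 flies 28 rose and 5 fell (20.6% and 17.6%), and in MN+glia G85R flies 25 rose and 3 fell (16.5% and 15.2%). Without the degraded array the last count was 26 and 3, against 16.5% and 14.5% of all probe sets, since RpS27A (0.13, adjusted p = 0.0233) and RpL10Ab (0.13, adjusted p = 0.0374) then passed and RpLP2 (0.10, adjusted p = 0.116) did not.

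The rises were spread over both subunits. Of the 11 main genes of the 40S subunit 9 to 11 rose in each line, with a median change of 0.16 to 0.21, and of the 19 of the 60S subunit 14 to 18 rose, with a median of 0.16 to 0.23. 20 of the 30 main genes were called higher in all 6 lines, 5 in 5 lines, 2 in 4, RpL39 and RpL15 in 1, and RpL41 in none. Over all probe sets, 8.43% were called higher in all 6 lines. The 6 comparisons share no arrays with each other. Within a line, all 3 arrays at 45d lay above all 3 at 5d for 29 of the 30 main genes in MN dSOD1 flies (28.3% of all probe sets), 28 in MN G85R (25.2%), 29 in glia dSOD1 (29.7%), 28 in glia G85R (27.9%), 28 in MN+glia dSOD1 (25.6%) and 22 in MN+glia G85R flies (17.4%). For 15 of the 30 main genes every one of the 18 arrays at 45d lay above every one of the 18 arrays at 5d, which held for 3.07% of all probe sets. The mean level of the 30 genes was 13.34 to 13.40 on the 5d arrays and 13.48 to 13.59 on the 45d arrays, without overlap.

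**Figure D1:**
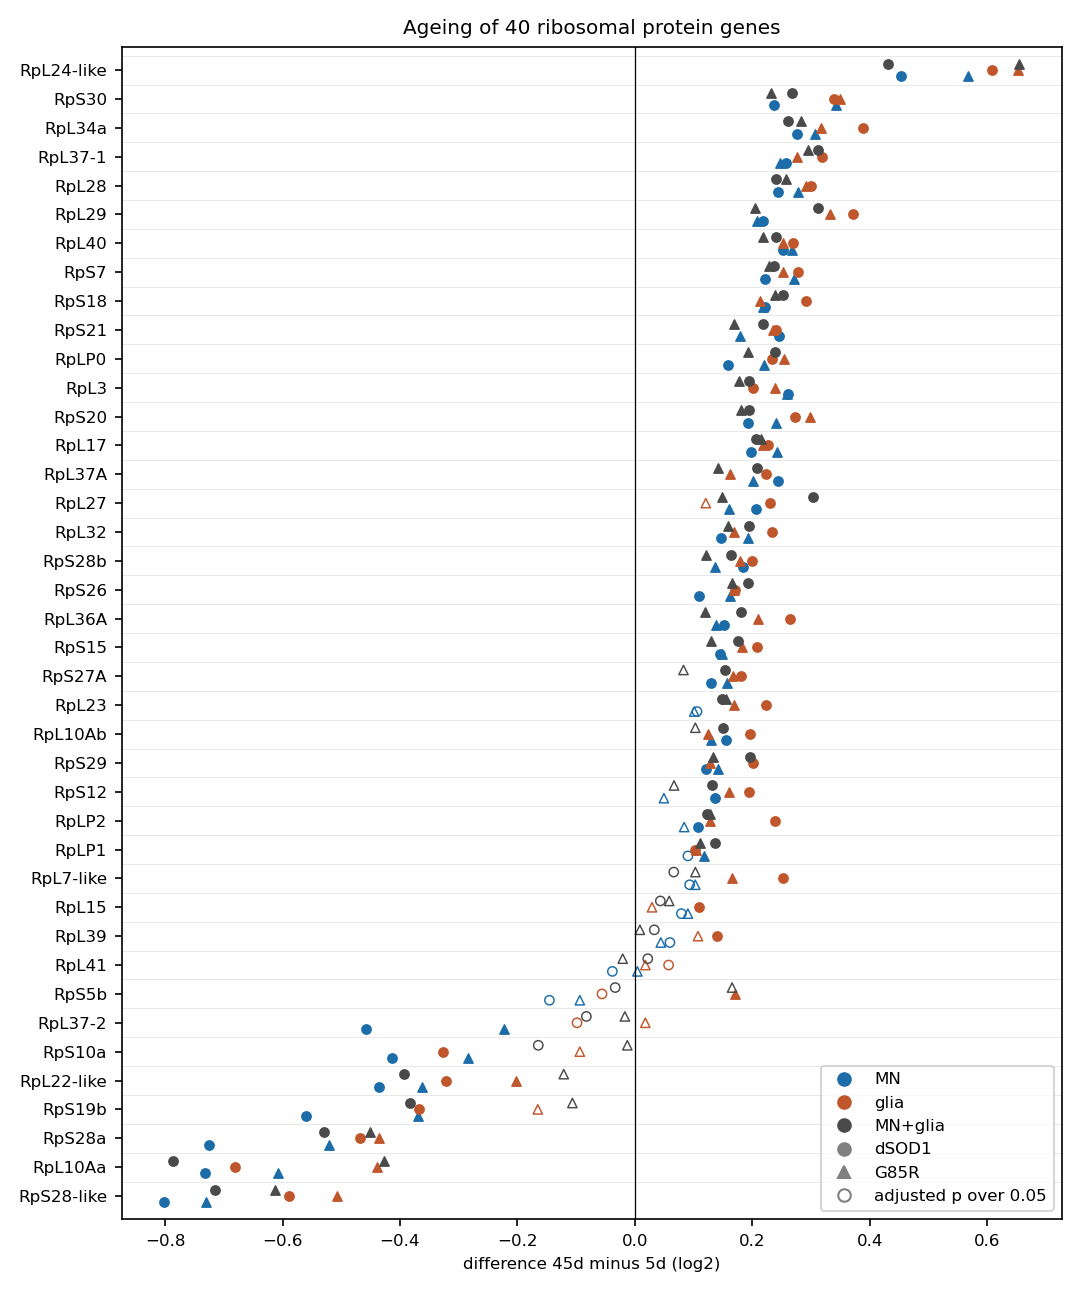
Difference between 45d and 5d flies (log2, x axis) for each of 40 ribosomal protein genes (y axis, ordered by the median of 6 lines). Colours mark the driver, circles dSOD1 and triangles G85R flies, and filled points have an adjusted p of at most 0.05. Most of the 30 main genes lie between 0.1 and 0.4, RpL41 lies at 0, RpL24-like stands highest and the second copies RpS28a, RpL10Aa and RpS28-like stand lowest.

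RpLP0, RpLP1 and RpLP2 encode the stalk proteins, which recruit the GTPase elongation factors to the 60S subunit. Median rises over the 6 lines were 0.23 for RpLP0, 0.11 for RpLP1 and 0.13 for RpLP2. RpLP0, the base of the stalk, ran from 13.19 to 13.36 on the 5d arrays (median 13.28) and from 13.37 to 13.59 on the 45d arrays (median 13.48). The ages did not overlap, and the rise was 0.16 to 0.25 (SE 0.05) with an adjusted p of 4.94e-05 to 0.00479 over the 6 lines. RpLP1 moved from a median of 13.81 to 13.92, and its arrays overlapped between the ages (13.71 to 13.89 at 5d, 13.85 to 14.00 at 45d). RpLP2, the partner of RpLP1 in the stalk, moved from a median of 13.58 to 13.70. RpLP1 and RpLP2 were each called higher in 5 of 6 lines. Every one of the RpLP1 calls was lost for at least 1 array when arrays were left out in turn, with rises of 0.08 to 0.12 then (in MN+glia dSOD1 flies for 5d replicate 2 alone). Of the RpLP2 calls only that in glia dSOD1 flies (0.24) held without each array, and the others fell to 0.10 to 0.13. The glia dSOD1 flies at 5d had the lowest RpLP2 mean of any group (13.42), against the median of 13.58 on all 5d arrays. The same arrays enter the G85R difference of RpLP2 in glia flies at 5d. They also enter its driver differences at 5d that involve glia dSOD1 flies, so these results are not independent of the rise of 0.24.

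RpL32, which encodes a 60S protein and is also known as rp49, is widely used as a reference gene for qRT-PCR in flies and served as such in the study. In MN dSOD1 flies its arrays read 13.52, 13.55 and 13.55 at 5d and 13.72, 13.67 and 13.67 at 45d. In MN G85R flies they read 13.45, 13.48 and 13.55 at 5d and 13.67, 13.71 and 13.69 at 45d. In glia dSOD1 flies they read 13.52, 13.55 and 13.56 at 5d and 13.79, 13.76 and 13.78 at 45d. In each of these lines all 3 old pools lay above all 3 young ones. The glia G85R arrays read 13.59, 13.58 and 13.58 at 5d and 13.76, 13.76 and 13.74 at 45d. The MN+glia dSOD1 arrays read 13.53, 13.48 and 13.49 at 5d and 13.68, 13.72 and 13.68 at 45d. The MN+glia G85R arrays read 13.50, 13.53 and 13.51 at 5d and 13.68, 13.72 and 13.62 at 45d. Ages were again separate in every line, including the degraded array, whose 13.53 was close to its 2 partners.

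RpL32 was therefore higher at 45d in all 6 lines, by 0.15 to 0.23 (SE 0.04, n = 3 per group), or 10.7 to 17.6%, with an adjusted p of 1.88e-05 to 0.0037. The rise kept its sign when arrays were rescaled, but after quantile normalization it was 0.07 (adjusted p = 0.187) in MN dSOD1 and 0.05 (adjusted p = 0.399) in glia G85R flies, and after centring each array on its median it was 0.08 (adjusted p = 0.117) in MN dSOD1 flies. Between G85R and dSOD1 flies of the same driver and age, RpL32 differed by -0.05 to 0.04 with an adjusted p of 0.551 to 0.996, and the 95% intervals of the 6 differences lay between -0.13 and 0.12. Its 12 group means spanned 0.28, or 1.22-fold. It ranked 14 of the 40 ribosomal protein genes from the narrowest range, and 12.7% of all 11981 genes had a narrower one.

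**Figure D2:**
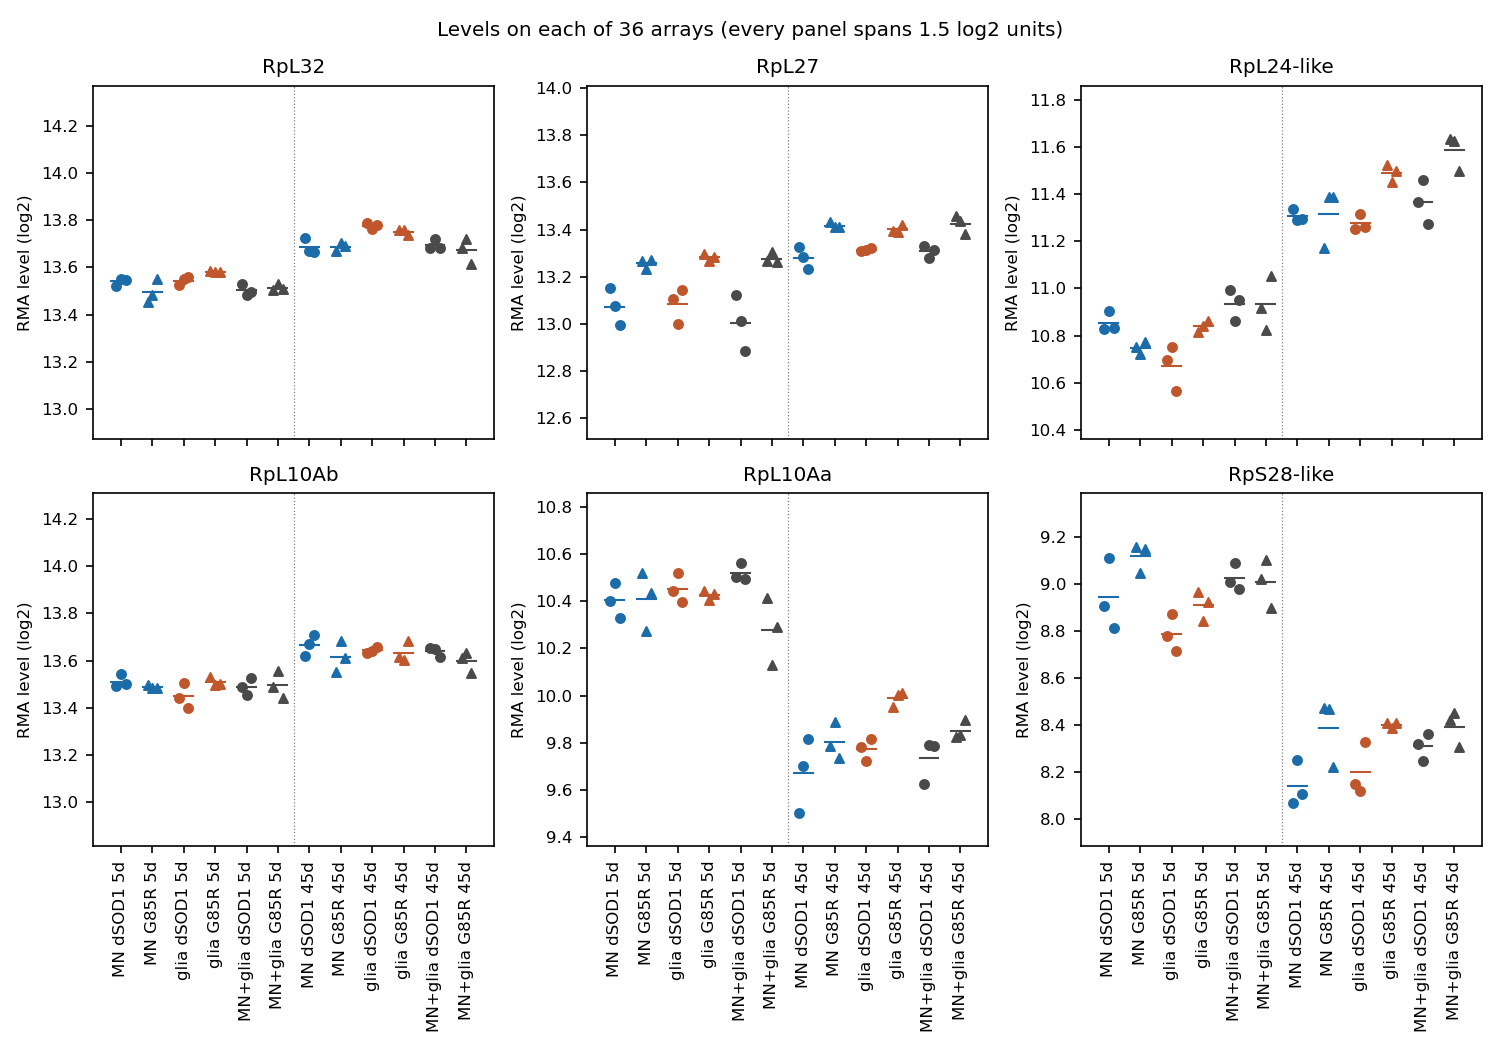
RMA level (log2, y axis) of RpL32, RpL27, RpL24-like, RpL10Ab, RpL10Aa and RpS28-like on each of 36 arrays, by group (x axis, 5d groups left of the dotted line and 45d groups right of it). Circles are dSOD1 and triangles G85R arrays, colours mark the driver and short lines are group means (n = 3). All panels have the same height in log2 units, so that the rise of RpL24-like and the falls of RpL10Aa and RpS28-like with age appear larger than the rises of RpL32 and RpL10Ab.

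Among the main genes the rises were largest for RpS30, RpL34a and RpL37-1. RpS30, whose protein is made fused to a ubiquitin-like domain, read 12.95, 13.03 and 13.06 in MN G85R flies at 5d and 13.33, 13.33 and 13.40 at 45d, a rise of 0.34 (SE 0.04, adjusted p = 2.41e-07). In glia G85R flies it rose by 0.35 from 13.15, 13.14 and 13.13 to 13.50, 13.48 and 13.48, again without overlap. RpL34a read 11.34, 11.34 and 11.45 in glia dSOD1 flies at 5d and 11.75, 11.79 and 11.76 at 45d, a rise of 0.39 (SE 0.05, adjusted p = 3.52e-08). In MN dSOD1 flies it rose by 0.28 from 11.42, 11.28 and 11.35 to 11.66, 11.63 and 11.59. RpL37-1 read 12.96, 12.93 and 12.96 in MN+glia dSOD1 flies at 5d and 13.28, 13.28 and 13.23 at 45d, a rise of 0.31 (SE 0.04, adjusted p = 5.72e-07). All 3 genes were called in all 6 lines, with median rises of 0.30, 0.29 and 0.29, and RpL28 and RpL29 followed with 0.27 each. RpL40 and RpS27A, which are made as fusions to ubiquitin, rose by 0.22 to 0.27 in 6 lines and by 0.08 to 0.18 with calls in 5 lines. The RpS27A call in MN dSOD1 flies was lost without replicate 2 at 5d (0.12), and after quantile normalization 4 of its 5 calls were lost (0.07 to 0.11).

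RpL41 did not pass the test in any line. Its 18 arrays at 5d ran from 14.03 to 14.17 (median 14.11) and those at 45d from 14.03 to 14.17 (median 14.12), and the differences were -0.04 to 0.06. RpL15 and RpL39 were called in glia dSOD1 flies alone, RpL15 at 0.11 and RpL39 at 0.14. The RpL15 call was lost without any 1 of the 6 arrays (0.10 to 0.12) and the RpL39 call without replicate 3 at either age (0.11 to 0.12), and both were lost under either rescaling, where RpL39 changed by 0.0015 after quantile normalization. Across the 30 main genes, brighter probe sets changed less with age: Spearman's rho between mean level and change was -0.68 to -0.72 in the 6 lines. These 30 genes share the arrays and are not independent points, and whether the top of the measuring range took part in this was not tested. Other bright genes rose in some cases and fell in others. Above a mean level of 13.29, the lower quartile of the 30 main genes and a limit set after the values were seen, 16 to 21 of 22 ribosomal protein genes rose and 0 fell in each line, with a median of 0.13 to 0.22, whereas of 35 other genes 5 to 11 rose and 10 to 14 fell, with a median of -0.06 to 0.07. The 99th percentile of all values on an array was 12.97 to 13.05 at 5d and 12.84 to 12.97 at 45d.

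The second copies moved apart from the main genes. RpL24-like resembles RpL24, and its yeast counterpart is not a part of the finished ribosome but an assembly factor of the 60S subunit. In MN dSOD1 flies it read 10.83, 10.90 and 10.83 at 5d and 11.34, 11.29 and 11.30 at 45d, a rise of 0.45 (SE 0.06, adjusted p = 7.3e-07). In MN+glia G85R flies it read 10.92, 10.82 and 11.05 at 5d and 11.63, 11.63 and 11.50 at 45d, a rise of 0.65 (SE 0.06, adjusted p = 2.65e-09), or 0.60 (adjusted p = 5.45e-08) without the degraded array. It was the largest rise among the 40 genes in every line (0.43 to 0.65, or 34.8 to 57.4%), and no array of one age overlapped those of the other. RpL7-like, whose yeast counterpart is also a 60S assembly factor, was called higher in glia dSOD1 flies (0.25, adjusted p = 0.000137) and in glia G85R flies (0.17, adjusted p = 0.0113). The second of these calls was lost without replicate 2 of the glia G85R flies at 5d or at 45d (0.11 to 0.15) and after median centring (0.11).

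RpS28-like, RpL10Aa and RpS28a fell with age in all 6 lines, while 9.09% of all probe sets were called lower in all 6. RpS28-like, which resembles the 40S protein RpS28, read 8.90, 9.11 and 8.81 in MN dSOD1 flies at 5d and 8.07, 8.25 and 8.11 at 45d, and fell by 0.80 (SE 0.08, adjusted p = 4.79e-10). Its smallest change, -0.51 in glia G85R flies, came from 8.97, 8.84 and 8.92 at 5d and 8.41, 8.39 and 8.41 at 45d. Ages were separate in every line. RpL10Aa, a second copy of the 60S protein L10A, read 10.50, 10.56 and 10.50 in MN+glia dSOD1 flies at 5d and 9.63, 9.79 and 9.78 at 45d, and fell by 0.79 (SE 0.07, adjusted p = 3.72e-10). In MN+glia G85R flies it read 10.41, 10.13 and 10.29 at 5d, of which the second is the degraded array, and 9.82, 9.83 and 9.89 at 45d, a change of -0.43, or -0.50 without the degraded array. For both genes every array at 45d lay below every array at 5d, as for 5.08% of all probe sets. RpS28a read 7.95, 7.91 and 7.90 in MN dSOD1 flies at 5d and 7.33, 7.11 and 7.15 at 45d, a change of -0.72, and its changes in the other lines were -0.53 to -0.44.

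The remaining second copies fell in some lines. RpL22-like was called lower in 5 lines, with changes of -0.44 to -0.20 there and -0.12 (adjusted p = 0.24) in MN+glia G85R flies. Its call in glia G85R flies was lost for 5 of the 6 arrays when left out in turn, with changes of -0.22 to -0.18. RpS19b, a germline copy of RpS19, was called in 4 lines (-0.56 to -0.37) and RpS10a in 3 (-0.41 to -0.28). RpS10a lost its call in MN G85R flies without 5d replicate 3 or 45d replicate 1 or 2 (-0.26 to -0.20) and in glia dSOD1 flies without 45d replicate 2 (-0.18). RpL37-2 fell in both MN lines, by 0.46 in dSOD1 and 0.22 in G85R flies, the latter call being lost without 5d replicate 3 or 45d replicate 1 (-0.16 to -0.14). RpS5b was called higher in glia G85R flies alone, at 0.17 (adjusted p = 0.0445), a call that was lost for 4 of 6 arrays left out in turn (0.12 to 0.18) and after either rescaling.

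Where both members of a pair were measured, the gap between them widened with age. The log2 gap between RpL10Ab and RpL10Aa was 2.97 to 3.22 in the 6 young groups and 3.65 to 3.99 in the 6 old ones. For RpS28b and RpS28a it was 5.75 to 6.02 and 6.36 to 6.79, for RpS28b and RpS28-like 4.69 to 4.95 and 5.54 to 5.85, and for RpL37-1 and RpL37-2 5.06 to 5.24 and 5.33 to 5.87. The size of a gap depends on the probes of both genes, and only its change between groups carries meaning. The main copies RpL10Ab (0.10 to 0.20), RpS28b (0.12 to 0.20) and RpL37-1 (0.25 to 0.32) were all higher at 45d as deposited. RpL10Ab did not pass in MN+glia G85R flies (adjusted p = 0.0869) unless the degraded array was left out (0.13, adjusted p = 0.0374), and its calls in MN G85R and glia G85R flies were lost for 3 and 5 of 6 arrays left out in turn (0.10 to 0.14). After quantile normalization all 5 of its calls were lost, with changes of 0.04 to 0.08 in 4 lines and of -0.0062, the opposite direction, in glia G85R flies. The RpS28b call in MN+glia G85R flies was lost for 4 of 6 (0.10 to 0.11) and after median centring (0.09), and its calls in MN G85R (0.06) and glia G85R flies (0.10) after quantile normalization.

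Tissue markers moved in the same arrays. Of 13 testis genes 9 to 12 fell with age in each line and 0 or 1 rose, with medians of -0.67 to -0.39, and their mean level ran from 10.04 to 10.34 on the 5d arrays and from 9.45 to 9.95 on the 45d arrays. The 10 second copies had mean levels of 8.80 to 8.96 and 8.46 to 8.80 on the same arrays. Among the testis genes, betaTub85D, the tubulin of the sperm tail, fell by 0.36 to 0.67, and the 5 genes of early germ cells measured were dim, with a mean of 5.03 to 5.25 at 5d, and had 0 or 1 call in either direction. Of 11 accessory gland genes 9 fell and 1 (Acp26Ab) rose in every line. Of 7 muscle genes 3 to 7 fell and 0 to 2 rose, and of 8 neuronal genes 2 to 4 fell and 0 rose. Of 6 glial genes 2 to 4 rose and 0 to 2 fell. The counts of all these markers stand beside the 16.5 to 26.1% of all probe sets that rose and the 14.9 to 19.2% that fell in a line. Of 10 yolk and egg shell genes 1 to 4 rose, led by Yp1 (0.74 to 2.42, called in 5 lines), and of 4 fat body genes 0 to 3 rose. The part of any tissue in the changes of the ribosomal protein genes was not tested.

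Other genes of protein synthesis were called higher with age more often than lower. The counts stand beside the 16.5 to 26.1% of all probe sets that rose in a line. Among initiation factors, which load the ribosome onto mRNA, 10 to 15 of 22 rose in each line and none fell, with medians of 0.14 to 0.19, led by eIF4B (0.30 to 0.59), a helper of the eIF4A helicase, and eIF6 (0.30 to 0.54), which binds free 60S subunits. Of 8 elongation and termination factors and ribosome-bound proteins 5 or 6 rose (4 in MN+glia G85R flies without the degraded array) and none fell, with medians of 0.20 to 0.27, led by the release factor eRF3 (0.32 to 0.60). Rack1, which sits on the 40S subunit, rose in all 6 lines (0.26 to 0.38). Of 23 genes for ribosome assembly 14 to 19 rose and 0 or 1 fell in each line, with medians of 0.25 to 0.44. The snoRNP protein gene Nop56 (0.27 to 0.76) and the nucleolar chaperone gene Nopp140 (0.31 to 0.76) rose in all 6 lines, and Rrp6, a nuclease of the nuclear exosome, was the most often called lower, in 3 lines. Of 7 genes of RNA polymerase I, which transcribes ribosomal RNA, 2 to 5 rose and none fell, and its largest subunit Polr1A rose in all lines (0.20 to 0.47), as did Polr1F (0.25 to 0.44). Of 9 growth regulators 2 to 6 rose and 0 or 1 fell, with medians of 0.12 to 0.30.

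The mitochondrial ribosome, which translates the few messages of the mitochondrial genome, moved less evenly. Of 69 genes 21 to 34 rose and 2 to 8 fell with age, with medians of 0.04 to 0.18. mRpS30 (0.61 to 0.91) and mRpS22 (0.41 to 0.53) rose in all 6 lines, mRpL52 fell in all 6 (-0.49 to -0.23) and mRpS14 in 5 (-0.56 to -0.20).

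**Figure D3:**
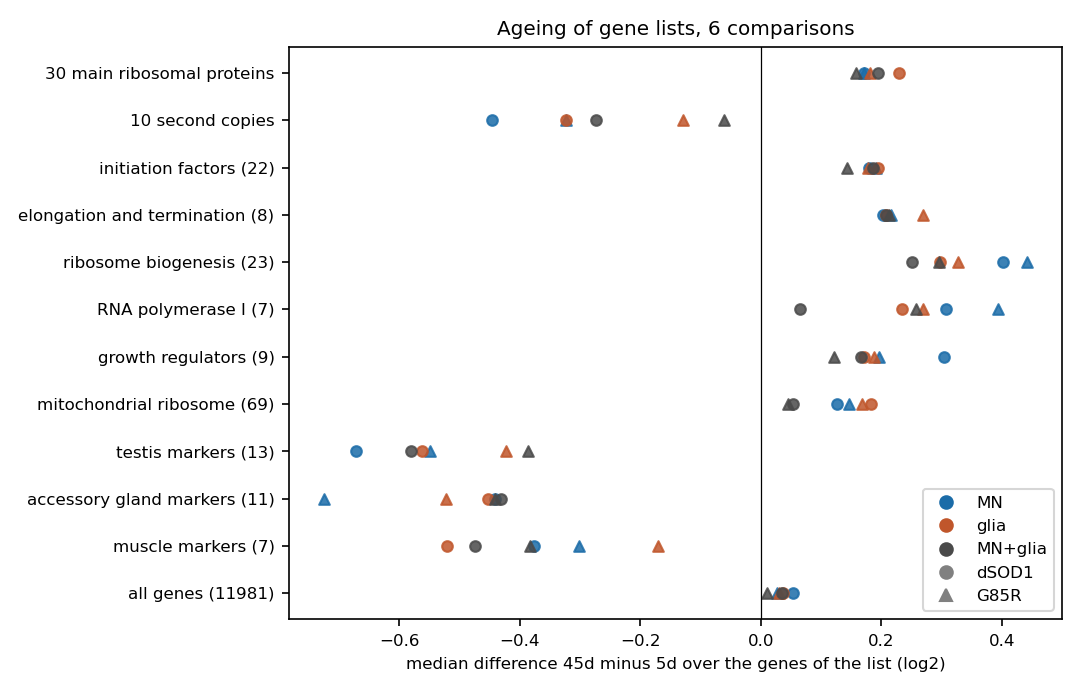
Median difference between 45d and 5d flies (log2, x axis) over the genes of each list (y axis, number of genes in brackets), 1 point per line. Colours mark the driver, circles dSOD1 and triangles G85R flies. Medians of the main ribosomal proteins and of the other translation lists lie above 0 in all 6 lines, and those of the second copies, testis, accessory gland and muscle genes lie below 0.

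The way the arrays were scaled changed the number of rises. After quantile normalization 15 to 24 of the 40 genes were called higher in a line, with medians of the main genes of 0.10 to 0.16, and after median centring 16 to 28, with medians of 0.11 to 0.20. In MN dSOD1 flies the split after centring was 16 higher and 8 lower, against 26 and 7 as deposited. No main gene was called lower under either scaling. Shares of all probe sets called after rescaling are not given here, so the rescaled counts have no background beside them. The sign of the change turned for RpL39 in 5 lines, for RpL15 and RpL41 in 2 each, and for RpS12, RpL10Ab and RpL37-2 in 1 each. Of 196 calls of the 40 genes with age, 165 held when each array of the comparison was left out in turn and 31 were lost.

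The main question of the study was how G85R flies differ from dSOD1 flies of the same driver and age. Few ribosomal protein genes passed, in shares close to or below those of all probe sets except for the rises in glia flies at 5d. Of 240 tests (40 genes in 6 comparisons) 13 passed. In MN flies at 5d 1 gene was higher and 1 lower (4.35% and 3.64% of all probe sets), and at 45d 2 were higher and 1 lower (5.18% and 4.84%). In glia flies 2 were higher and 0 lower at 5d (2.70% and 2.93%) and 2 higher and 0 lower at 45d (4.89% and 5.09%). In MN+glia flies 1 was higher and 2 were lower at 5d (6.05% and 7.82%), which became 1 and 0 without the degraded array (2.93% and 3.58%), and 1 was higher and 0 lower at 45d (3.02% and 4.01%). Medians of the 30 main genes were -0.04 to 0.03, and the 95% intervals of their single differences all lay between -0.23 and 0.38. Only RpL27 and RpLP2 of the main genes passed in any of the 6 comparisons by the probe set that stood for the gene. At 45d 0 of the 30 main genes passed, against 3 (MN), 2 (glia) and 1 (MN+glia) of the 10 second copies. At 5d 1, 2 and 1 main genes and 1, 0 and 2 second copies passed in the same order. Without the degraded array 0 second copies passed in MN+glia flies at 5d. Dimmer probe sets that were left aside also gave calls. For RpL3 (mean level 4.33) the differences were 0.47 (MN 45d), 0.45 (glia 5d) and 0.44 (glia 45d). In MN+glia flies at 5d, with the degraded array included, they were -0.49 for RpS29 (mean level 4.64) and 0.26 for RpS30 (6.22). The remaining probe sets left aside, of RpL3, RpS29 and RpS7, gave none.

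RpL27, a 60S protein gene, was higher in G85R than in dSOD1 flies at 5d with all 3 drivers. With MN expression the arrays read 13.15, 13.07 and 13.00 in dSOD1 and 13.26, 13.23 and 13.27 in G85R flies, a difference of 0.18 (SE 0.05, adjusted p = 0.0241). With glial expression they read 13.11, 13.00 and 13.14 in dSOD1 and 13.30, 13.27 and 13.28 in G85R flies, a difference of 0.20 (adjusted p = 0.0164). With MN+glia expression they read 13.12, 13.01 and 12.88 in dSOD1 and 13.26, 13.30 and 13.26 in G85R flies, a difference of 0.27 (adjusted p = 0.000453). All 9 young G85R arrays lay above all 9 young dSOD1 arrays, and 1.07% of all probe sets were called higher at 5d with all 3 drivers. At 45d the 9 G85R arrays (13.38 to 13.46) again lay above the 9 dSOD1 arrays (13.23 to 13.33). A separation at both ages was found for RpL27 alone among the 40 genes and for 0.282% of all probe sets. The MN+glia call stayed without the degraded array (0.26, adjusted p = 0.00348) and without each other array. In fits on only the arrays of a comparison, which leave fewer degrees of freedom, RpL27 was not called at 5d with any driver. The MN call was lost without dSOD1 replicate 3 (0.14) or without G85R replicate 1 or 3 (0.18 each), and after median centring (0.15). The glia call was lost without dSOD1 replicate 2 (0.16) or G85R replicate 1 (0.19). At 45d RpL27 differed by 0.14 with MN expression (adjusted p = 0.0939), 0.09 with glial expression (adjusted p = 0.367) and 0.12 with MN+glia expression (adjusted p = 0.212), and the change of the difference with age did not pass the test with any driver. With MN expression at 45d the difference of 0.14 passed with the dim probe sets left out or with an eBayes trend. The stalk gene RpLP2 read 13.46, 13.45 and 13.35 in glia dSOD1 flies at 5d and 13.60, 13.55 and 13.56 in glia G85R flies, a difference of 0.15 (adjusted p = 0.0385) that was lost for 5 of 6 arrays left out in turn (0.12 to 0.17). This glia dSOD1 group had the lowest RpLP2 mean of all groups and also enters the age and driver comparisons of that gene.

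**Figure D4:**
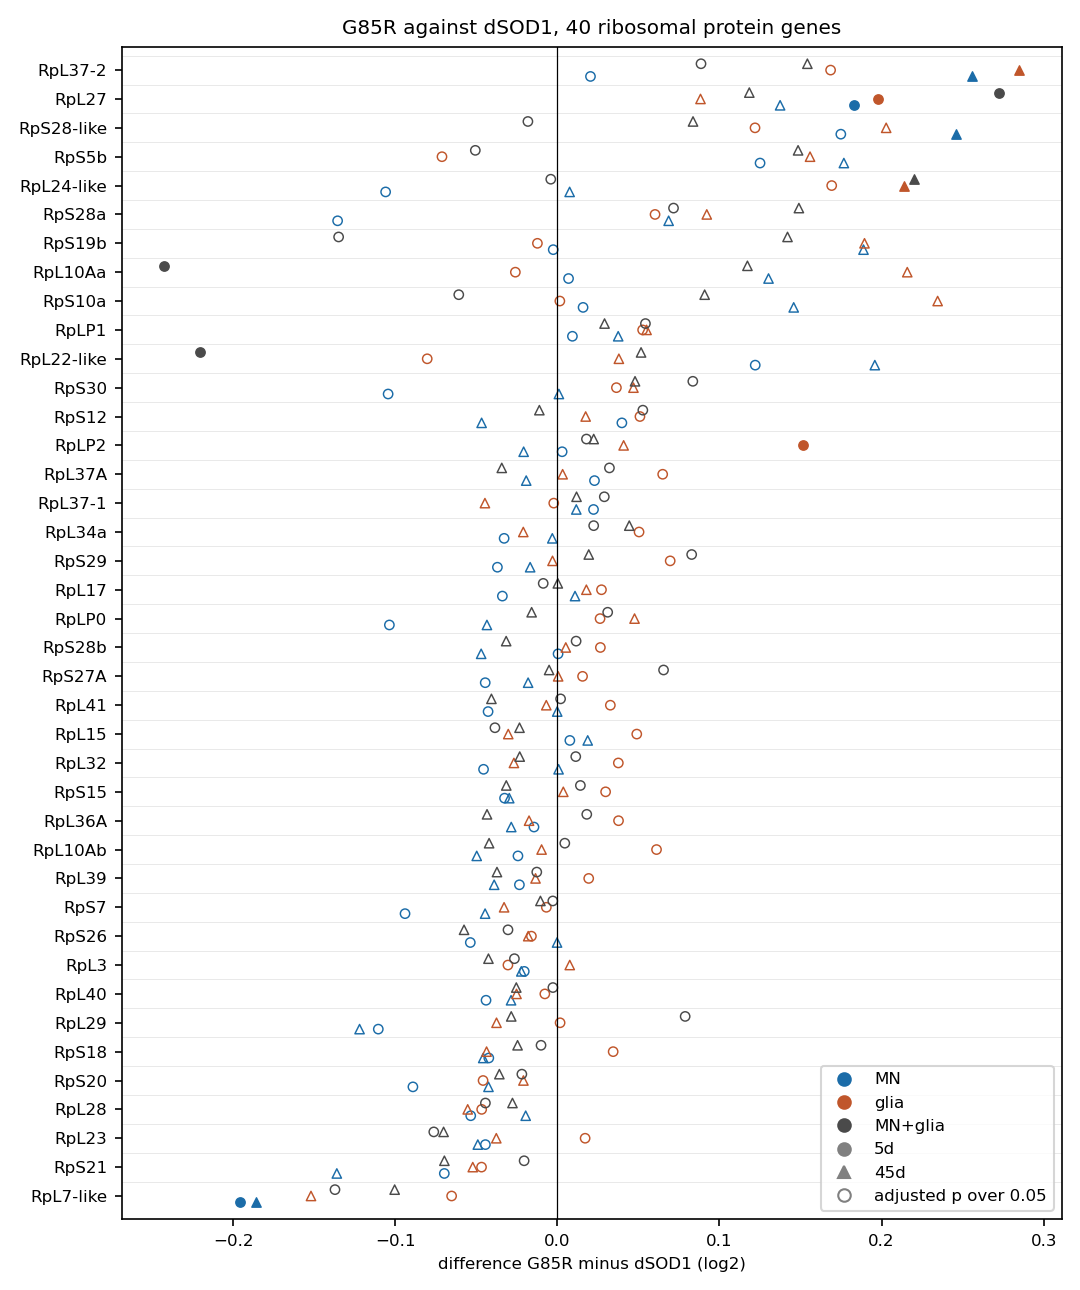
Difference between G85R and dSOD1 flies (log2, x axis) for each of 40 ribosomal protein genes (y axis, ordered by the median of 6 comparisons). Colours mark the driver, circles 5d and triangles 45d flies, and filled points have an adjusted p of at most 0.05. Of 240 points 13 are filled, and RpL27 is filled at 5d with all 3 drivers.

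The other calls were of second copies. RpL7-like was lower in MN G85R flies at both ages, at 5d with 9.70, 9.83 and 9.84 against 10.01, 9.95 and 10.00 in dSOD1 flies (-0.20, SE 0.05, adjusted p = 0.0136) and at 45d with 9.89, 9.87 and 9.91 against 10.10, 10.02 and 10.12 (-0.19, adjusted p = 0.015). G85R arrays lay below dSOD1 arrays at each age. The 5d call was lost without dSOD1 replicate 1 or 3 or G85R replicate 1 (-0.19 to -0.15), and the 45d call without dSOD1 replicate 1 or 3 or G85R replicate 2 (-0.18 to -0.17). RpL37-2 was higher in G85R flies at 45d with MN expression (7.49, 7.82 and 7.65 against 7.45, 7.40 and 7.34, a difference of 0.26, adjusted p = 0.0216) and with glial expression (8.01, 7.92 and 7.87 against 7.67, 7.69 and 7.59, a difference of 0.28, adjusted p = 0.00946). The groups did not overlap in either, and the MN call was lost for 4 of 6 arrays left out in turn (0.17 to 0.26) and the glia call without dSOD1 replicate 3 (0.25) or G85R replicate 1 (0.24). RpL24-like was higher in G85R flies at 45d with glial expression (11.53, 11.45 and 11.50 against 11.25, 11.32 and 11.26, a difference of 0.21, adjusted p = 0.0282) and with MN+glia expression (11.63, 11.63 and 11.50 against 11.37, 11.46 and 11.27, a difference of 0.22, adjusted p = 0.0301). Each of these calls was lost for 4 of 6 arrays left out in turn, with differences of 0.20 to 0.21 and 0.17 to 0.22, and the glia call also after median centring (0.19). RpS28-like was higher in MN G85R flies at 45d by 0.25 (adjusted p = 0.0359), with 8.47, 8.47 and 8.22 against 8.07, 8.25 and 8.11, and here the groups overlapped and 4 of 6 left-out arrays ended the call (0.20 to 0.23).

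In the MN+glia flies at 5d RpL22-like (8.29, 8.07 and 8.10 against 8.39, 8.35 and 8.38 in dSOD1 flies, -0.22, adjusted p = 0.0482) and RpL10Aa (-0.24, adjusted p = 0.0258) were lower in G85R flies. Without the degraded array the differences were -0.18 (adjusted p = 0.238) and -0.17 (adjusted p = 0.226), and neither passed. RpL22-like also lost its call without any 1 of the 3 dSOD1 arrays or G85R replicate 3 (-0.23 to -0.20) and after either rescaling (-0.19 each), and RpL10Aa without dSOD1 replicate 2 (-0.22) or 3 (-0.25). Median differences of the 10 second copies at 45d were 0.16 (MN), 0.20 (glia) and 0.13 (MN+glia), and those of the 13 testis genes in the same comparisons 0.16, 0.15 and 0.06, with 6, 0 and 1 called higher and 1 lower in each. At 5d in MN+glia flies the testis genes had a median of -0.14 and 2 were called lower (-0.11 and 1 without the degraded array). The part of testis RNA in these differences was not tested.

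Other translation genes also changed little with G85R. In each of the 6 comparisons 0 or 1 of the 22 initiation factors was called, eIF3d1 and eIF3f1 being lower once each, the latter not without the degraded array. Of the 8 elongation and termination genes 0 or 1 passed in each direction, with eEF1alpha2 higher and Rack1 lower in 2 comparisons each. Of the 23 assembly genes 0 or 1 was higher and 0 to 4 were lower (4 in MN+glia flies at 5d, or 1 without the degraded array), of the 7 RNA polymerase I genes 0 or 1 was higher (Polr1E in 2 comparisons), and of the 9 growth regulators none passed. Of the 69 mitochondrial ribosomal protein genes 1 to 5 were higher and 1 to 9 lower in the fit with all arrays. Of all probe sets 2.70 to 6.05% were higher and 2.93 to 7.82% lower. mRpL39 was higher in all 6 comparisons (0.21 to 0.37), mRpL21 was higher in 4, mRpL50 was lower in 5 (-0.42 to -0.21) and mRpL10 in 3.

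The age comparison of the G85R difference asked whether G85R flies aged differently from dSOD1 flies. No ribosomal protein gene passed limma's test with MN expression (1.49% of all probe sets called) or with glial expression (1.74% called), where 1 and 3 of the 40 genes had an unadjusted p under 0.05. With MN+glia expression 1 gene passed (3.86% called). RpL10Aa fell by 0.79 in dSOD1 and by 0.43 in G85R flies, and the difference of 0.36 (SE 0.10) had an adjusted p of 0.0452. Without the degraded array it was 0.29 (adjusted p = 0.181), none of the 40 genes passed and 1.46% of all probe sets were called. It was lost for 9 of the 12 arrays left out in turn, with differences of 0.29 to 0.38.

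The G85R difference was also compared between drivers, which tests whether it varies between driver lines. The cells that express G85R cannot be told apart here from driver, insertion site and genetic background. None of the 40 genes passed in any of the 6 comparisons of drivers. The shares of all probe sets called were 0.618% for glia against MN at 5d, 1.42% at 45d, 2.59% for MN+glia against MN at 5d, 1.36% at 45d, 0.218% for MN+glia against glia at 5d and 0.453% at 45d. At an unadjusted p under 0.05 there were 4, 1, 5, 1, 2 and 0 of the 40 genes in the same order. Without the degraded array none passed at 5d either, with 1.02% of all probe sets called for MN+glia against MN and 0.144% for MN+glia against glia. With all arrays the lowest adjusted p was 0.070, for RpL22-like in MN+glia against MN flies at 5d (0.171 without the degraded array). The 95% intervals of the main genes in that comparison ran from -0.17 to 0.32.

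Among control flies that shared the dSOD1 transgene, driver lines differed in a few genes. Glia against MN lines had 0 higher and 3 lower genes at 5d (9.15% and 7.29% of all probe sets), led by RpLP2 (13.46, 13.45 and 13.35 against 13.62, 13.63 and 13.63, a difference of -0.21, adjusted p = 0.00121). At 45d they had 5 higher and 0 lower genes (9.98% and 10.3%), led by RpS28a (7.45, 7.46 and 7.55 against 7.33, 7.11 and 7.15, a difference of 0.29, adjusted p = 0.00459). MN+glia against MN lines had 2 higher and 2 lower genes at 5d (13.1% and 8.96%), with RpL22-like highest (8.39, 8.35 and 8.38 against 8.09, 8.12 and 8.05, a difference of 0.29, adjusted p = 0.00704) and RpS29 lowest (-0.16, adjusted p = 0.00608, but -0.05 and not called with the median over its probe sets). At 45d they had 4 higher and 0 lower genes (7.52% and 5.66%), led by RpL37-2 (7.68, 7.91 and 7.65 against 7.45, 7.40 and 7.34, a difference of 0.35, adjusted p = 0.00127) and RpL22-like (0.33, adjusted p = 0.00271). MN+glia against glia lines had 3 higher and 0 lower genes at 5d (10.6% and 7.78%), led by RpL24-like (10.99, 10.86 and 10.95 against 10.70, 10.75 and 10.56, a difference of 0.27, adjusted p = 0.00348). At 45d they had 0 higher and 5 lower genes (11.6% and 9.07%), led by RpL34a (11.52, 11.53 and 11.51 against 11.75, 11.79 and 11.76, a difference of -0.24, adjusted p = 0.00026). The groups did not overlap for any of these genes, and these 8 calls held when each array was left out in turn, while the other 16 of the 24 calls were each lost for at least 1 array. The glia dSOD1 arrays at 5d behind the RpLP2 call also enter its G85R difference in glia flies and its rise with age.

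Second copies made up many of the driver differences, and the lines with M1B-Gal4 stood higher at 45d. RpL22-like, RpL37-2 and RpS28a were called higher in the dSOD1 flies of both glia and MN+glia lines than in MN lines at 45d, and the 3 arrays per group of RpL22-like spanned 7.53 to 7.74 in MN flies, 7.85 to 8.04 in glia flies and 7.88 to 8.06 in MN+glia flies. Its call for glia against MN was lost without replicate 1 of either group (0.22 to 0.23). The RpL37-2 call for glia against MN was lost without MN replicate 3 or glia replicate 1 or 2 (0.22 to 0.24), and the RpS28a call for MN+glia against MN without MN replicate 2 or 3 or MN+glia replicate 2 (0.17 to 0.20), after quantile normalization (0.21) and after median centring (0.20). The mean of the 13 testis genes on the same arrays was 9.45 to 9.65 in MN, 9.74 to 9.85 in glia and 9.67 to 9.80 in MN+glia flies, and its part in the difference was not tested. The direction of driver differences depended on the scaling. After median centring, MN+glia against MN lines had 1 higher and 16 lower genes at 5d, and MN+glia against glia lines had 1 higher and 6 lower at 5d and 0 higher and 11 lower at 45d. These comparisons use the same 6 dSOD1 groups, so that a single group enters more than 1 of them. Shares of all probe sets called after rescaling are not given here, so the counts after centring have no background beside them.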

How the data were processed

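RNA of 12 groups of whole male flies was hybridised to Affymetrix Drosophila Genome 2.0 arrays, 3 per group, by the authors. The deposited values are log2 levels per probe set, which the authors made by RMA over all arrays (background correction, quantile normalization and summary of the probes). They carry no read depth, and the number of arrays limits the precision. RMA brings the distributions of levels close together across arrays, so that a change of total RNA per fly is not measured. The distributions were not equal as deposited. Array medians ran from 6.41 to 6.55, and the 99th percentile was 12.97 to 13.05 at 5d and 12.84 to 12.97 at 45d. The brightest probe sets lie near the top of the scale.

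Here 183 control probe sets were left out and 18769 were fitted with limma 3.58.1 (R 4.3.3), with 1 mean per group over all 36 arrays, 24 residual degrees of freedom and a Benjamini-Hochberg adjustment within each of 27 comparisons. No filter on low values was applied in the reported fit. The fit was tested on simulated data. Probe sets were named through the platform annotation, of which 13646 carried 1 gene symbol, 402 several and 4721 none, and symbols were checked through gene identifiers against the RefSeq annotation of the release 6 assembly, which changed none. No sequence was used here.

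Members, lists and tests were chosen with earlier results of these data known. Named were RpL32, the stalk genes, both genes of each measured pair, the 2 largest called rises and falls per comparison, the 3 brightest and dimmest genes, the 3 genes with the widest and narrowest ranges, and up to 2 called genes per direction in each list of other translation genes. RpL27 at 45d, RpL40, RpS27A, RpL28, RpL29, the single genes Acp26Ab, Yp1 and betaTub85D, and RpS5b were named after their values were seen. The lists held initiation factors, elongation and termination factors, ribosome assembly genes, RNA polymerase I, growth regulators, mitochondrial ribosomal proteins, and markers of testis, early germ cells, accessory gland, yolk and egg shell, muscle, fat body, neurons and glia. Quantile normalization, median centring, leaving out dim probe sets (mean log2 under 6), an eBayes trend, fits on the arrays of 1 comparison, a replicate block, the median over probe sets of a gene, and leaving out each array were tried. The signal of the transgenes was not analysed here.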

Additional observations from a re-analysis of the deposited data

Results flagged for a closer look

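RpL10Aa, a second copy of a 60S protein gene, fell less with age in MN+glia G85R flies than in MN+glia dSOD1 flies, with a difference of 0.36 between the changes by limma's test of that difference (adjusted p = 0.0452). All 3 arrays at 45d lay below all 3 at 5d in both lines. Without the degraded array the difference was 0.29 (adjusted p = 0.181).

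RpS5b, a germline copy of a 40S protein gene, had arrays that separated the ages in opposite directions between lines, although only the rise in glia G85R flies passed limma's test. All 3 arrays at 45d lay above all 3 at 5d in 2 lines, glia G85R (8.74, 8.58 and 8.74 at 5d, 8.89, 8.83 and 8.85 at 45d) and MN+glia G85R (8.66, 8.57 and 8.66 at 5d, 8.79, 8.77 and 8.83 at 45d). All 3 lay below in MN dSOD1 flies (8.65, 8.67 and 8.70 at 5d, 8.43, 8.56 and 8.58 at 45d). Over all probe sets the share of such separations was 27.9% (glia G85R, above), 17.4% (MN+glia G85R, above) and 21.8% (MN dSOD1, below). The difference between these lines was not tested.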

How the results depend on the processing

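Directions of called genes held under the alternatives with 3 exceptions, the changes with age of RpS7 in MN G85R (-0.010) and MN+glia G85R flies (-0.061) with the median over its probe sets and of RpL10Ab in glia G85R flies after quantile normalization (-0.0062). Scaling moved the median change of the 40 genes with age, which after quantile normalization was 0.070 (MN dSOD1), 0.074 (MN G85R), 0.13 (glia dSOD1), 0.094 (glia G85R), 0.13 (MN+glia dSOD1) and 0.11 (MN+glia G85R) and after median centring 0.083, 0.10, 0.19, 0.12 and, for MN+glia G85R, 0.10. Median centring also gave medians of -0.068 (MN 5d), -0.022 (glia 45d) and 0.032 (MN+glia 5d) for G85R against dSOD1, -0.048 for the age change of that difference in glia, and for drivers 0.065 (glia against MN 45d), -0.11 and -0.030 (MN+glia against MN, 5d and 45d), -0.068 and -0.084 (MN+glia against glia). For the G85R difference between drivers it gave 0.088 (glia against MN 5d), 0.10 and 0.027 (MN+glia against MN, where quantile normalization gave 0.031 at 45d), 0.011 and 0.019 (MN+glia against glia). Numbers of genes called after median centring were 1 for G85R in MN 5d, 8 for glia against MN 45d, 17 and 2 for MN+glia against MN, 7 and 11 for MN+glia against glia and 2 for the G85R difference of MN+glia against MN 5d. Quantile normalization gave 2 (MN+glia against MN 45d), 6 (MN+glia against glia 5d) and 1 (that G85R difference). With dim probe sets left out there were 8 (G85R, MN 45d), 5 (G85R, glia 45d), 2 (age change, MN+glia), 9 (glia against MN 45d), 8 (MN+glia against glia 5d) and 3 (that G85R difference), and with an eBayes trend 6, 4, 8 (glia against MN 45d), 9 and 8 (MN+glia against glia) and 2 in the same kinds of comparison. The median over probe sets gave 1 for that G85R difference. With only the arrays of the comparison, which leaves fewer degrees of freedom, 0 were called for G85R in MN 5d, MN 45d, glia 5d, MN+glia 5d and MN+glia 45d, 21 and 7 with age in MN G85R and MN+glia G85R, 0 for the age change in MN+glia, 0 and 3 for glia against MN, 1 and 2 for MN+glia against MN and 2 for MN+glia against glia 45d. Same-numbered replicates did not deviate together in most comparisons (correlations -0.302 to 0.402, with all 3 pairs over 0.1 in 1 of 18 comparisons). Whether they share a batch or a collection cannot be told from these correlations. A replicate block gave 0 for the age change in MN+glia, 1 for glia against MN 5d and 3 for MN+glia against glia 45d, and the other counts were within 1.5 times. Leaving out 1 array gave 0 to 3 genes for G85R in MN 5d, 0 to 3 in MN 45d, 0 to 2 in glia 5d, 0 to 2 in glia 45d, 1 to 3 in MN+glia 5d, 0 to 1 in MN+glia 45d, 0 to 2 for the age change in MN+glia, 1 to 2 and 2 to 4 for glia against MN, 2 to 4 and 2 to 3 for MN+glia against MN, 1 to 3 and 1 to 3 for MN+glia against glia and 0 to 2 for the G85R difference of MN+glia against MN 5d. Medians then ran from -0.041 to 0.0077 (G85R, MN+glia 45d), 0.12 to 0.16 (age, MN+glia G85R) and -0.032 to 0.0087 (G85R difference, MN+glia against glia 45d), and numbers called with age were 29 to 32, 29 to 31, 34 to 35, 28 to 30, 30 to 32 and 20 to 29 in the 6 lines. The cause of these shifts was not tested. Shares of all probe sets called under the alternatives are not given here.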
